A study of Mus musculus with 8 samples.

Results

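The CCN genes encode secreted matricellular proteins, which sit in the extracellular matrix and bring messages to cells rather than giving the tissue its strength. The members were chosen by gene symbol: a probe set belonged to the family where its platform annotation was exactly Ccn1, Ccn2, Ccn3, Ccn4 or Ccn5. That gave 5 probe sets for 5 genes, 1 probe set each, of 12422 probe sets tested, 10833 of which carry the symbol of a single gene (8251 genes). Ccn6, the family's other gene, is not part of the rule and was not analysed here. The family itself was picked with earlier results of these arrays known, so the values of the members by time and genotype are given as a description and without a test.

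Expression was measured on Affymetrix arrays in mouse cumulus cells, the granulosa-derived cells that surround the oocyte, at 4 times after human chorionic gonadotropin (hCG). The females were C57Bl/6 and 3 to 4 weeks old. One genotype, EP2KO, was Ptger2(-/-) and so lacked the EP2 receptor for prostaglandin E2, and the other was wild type (WT). Females were primed with PMSG (5 IU), a stimulus of follicle growth. After 48 h they received hCG (5 IU) as a stand-in for the surge of luteinizing hormone, except those of the 0 h groups. Complexes came from punctured follicles at 0, 3 and 9 h. At 14 h they had been ovulated, were collected from the ampulla of the oviduct, and the cumulus cells were dissociated in 0.1% hyaluronidase, so the time and the way of collection cannot be told apart. There was 1 array for each genotype and time, 8 in all, each made from 100 ng of total RNA by amplification in 2 rounds. The sources used here do not give how many mice went into an array. A difference between the genotypes at 1 time therefore has no replicate check, and 2 arrays of different genotype stand for each time.

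CCN proteins are built from modules that resemble parts of insulin-like growth factor binding proteins, von Willebrand factor, thrombospondin and cystine-knot growth factors. They bind integrins and heparan sulfate proteoglycans at the cell surface and modify adhesion, migration, matrix synthesis and vessel growth. Ccn1 (formerly Cyr61) and Ccn2 (formerly Ctgf) are textbook targets of the Hippo pathway, where the coactivators YAP and TAZ act through TEAD factors, and of serum response factor (SRF). Ccn2 is also induced by transforming growth factor beta, Ccn3 (formerly Nov) often acts against Ccn2, Ccn4 (formerly Wisp1) was found as a WNT-inducible gene, and Ccn5 (formerly Wisp2) lacks the cystine-knot module of the others. In the ovary, Ccn2 is made by granulosa cells of growing follicles, and loss of Ccn2 from mouse ovarian cells lowers fertility.

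The promoter of Ccn1, the member best known as a TEAD and SRF target, is shown because the lists of pathway genes compared with the family rest on those factors. It is from the RefSeq promoter table on GRCm38.p6, chr3:145649936-145650235, minus strand, 250 bases before to 50 after the start, and 1 of the 5 members matched that table.
Ccn1 promoter: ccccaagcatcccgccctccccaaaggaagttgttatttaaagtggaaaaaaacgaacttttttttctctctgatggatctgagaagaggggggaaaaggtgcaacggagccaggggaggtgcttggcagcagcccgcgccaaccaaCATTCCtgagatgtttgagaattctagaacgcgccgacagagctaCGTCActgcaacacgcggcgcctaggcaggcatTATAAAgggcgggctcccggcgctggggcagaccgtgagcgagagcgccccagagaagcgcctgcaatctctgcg

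Capitals mark matches found on either strand, none overlapping another. The first is the TEAD motif GGAATG, read on the opposite strand as CATTCC and beginning at base −103 from the start. The second is TGACG, the core of the cAMP response element, read as CGTCA from base −58. The third is the TATA box TATAAA from base −25. Of 32851 promoters of the same length (those on chromosome 18 were left out), 14.7% held the TEAD motif, 20.8% held TGACG and 13.6% held TATAAA. The window held no match to the SMAD motif GTCTAG (in 8.37% of promoters), the AP-1 motif TGANTCA (7.81%) or the SRF-binding CArG box (1.63%). In gene order Ccn1 lies between Znhit6 and Ddah1, Ccn2 between Moxd1 and Enpp1, Ccn3 between Mal2 and Enpp2, Ccn4 between Sla and Ndrg1, and Ccn5 between Ada and Kcnk15, so no 2 members are neighbours.

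All values are log2 signals as deposited, after robust multi-array averaging (RMA), so a difference of 1 is a 2-fold change. Levels of different probe sets cannot be set against each other as amounts of RNA, since probes bind with different strength. Array medians lay between 7.79 and 7.89. The targeted gene separated the genotypes: Ptger2 read 4.57, 4.24, 4.69 and 4.51 in EP2KO at 0, 3, 9 and 14 h, against 4.95, 5.97, 5.37 and 5.33 in WT. The sources used here do not place its probes relative to the deletion. Cumulus genes of matrix expansion (Has2, Ptx3, Tnfaip6 and Ptgs2) were measured among the granulosa and cumulus markers. Of these 11 markers 5 were called higher and 3 lower at 3 h than at 0 h, beside 17.4% and 25.4% of all probe sets. Their summed signal was 14.44 in EP2KO and 14.68 in WT at 14 h, against 15.15 to 15.74 earlier (log2). Markers of other cell types also differed at 14 h, and some at 9 h. Of 9 oviduct epithelium markers 4 were called higher and 1 lower at 14 h than at 0 h (limma adjusted p under 0.05). Of 12 leukocyte markers 5 were called higher and none lower. Over all probe sets, 13.5% were called higher and 15.2% lower at 14 h. Ovgp1, an oviduct secretory gene, read 11.46 in EP2KO and 11.13 in WT at 14 h, against 7.05 to 7.76 on the 6 earlier arrays, whereas Foxj1 of ciliated cells was lower, with a difference of −0.41 (limma adjusted p = 0.0252). The summed signal of 12 leukocyte markers was 12.19 in EP2KO and 11.82 in WT there, against 11.11 to 11.54 earlier (log2). Ptprc, the pan-leukocyte marker, stayed between 5.53 and 5.86 on the 8 arrays. Of 11 endothelium markers 2 were called higher and 1 lower at 9 h, beside 10.9% and 12.1% of all probe sets. At 14 h 1 was higher and 1 lower. Cdh5 was higher by 1.52 at 9 h (limma adjusted p = 0.000306) and by 1.55 at 14 h (limma adjusted p = 0.000131). Pecam1, also of endothelium, stayed between 8.44 and 9.07 on the 8 arrays. The difference between the 3′ and 5′ probe sets of Gapdh, a measure of RNA integrity and of shortening by amplification, was 2.82 in EP2KO and 2.87 in WT at 14 h, against 0.80 to 1.86 earlier. The same difference for Actb was 1.37 in EP2KO and 1.61 in WT at 14 h, the highest of each genotype, against 0.69 to 1.54 earlier. The WT array at 9 h, at 1.54, lay above the EP2KO array at 14 h, so that control set the 14 h arrays apart less clearly. In bulk RNA, fewer cells of a type and less RNA per cell cannot be told apart. The part of these shifts in the 9 h and 14 h values below was not tested.

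**Figure D1:**
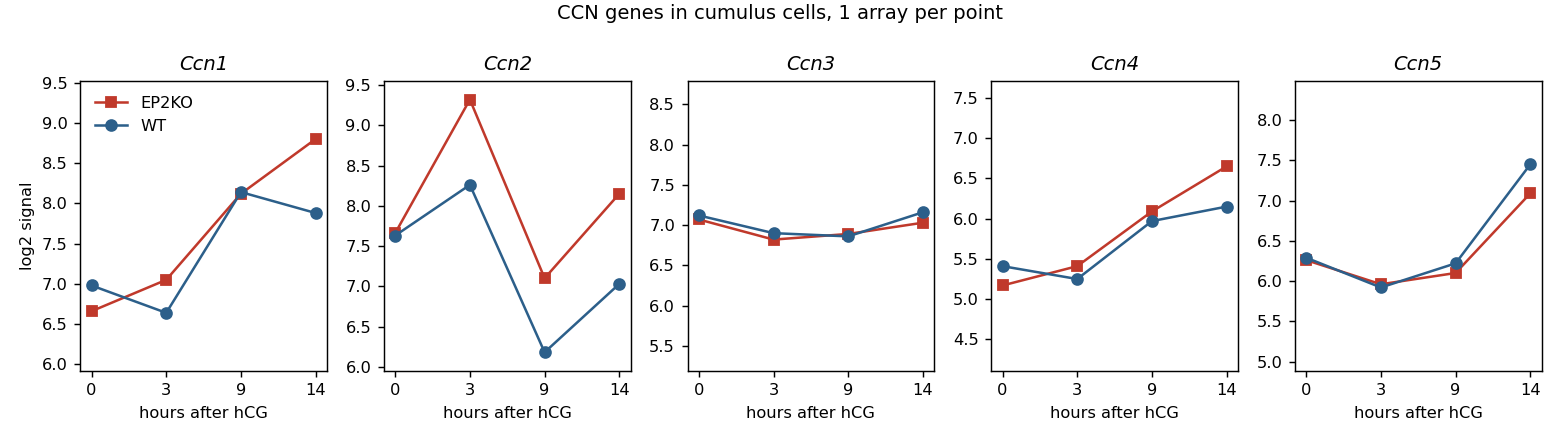
Log2 signal of the 5 CCN probe sets (1 panel each) against hours after hCG (drawn at even steps), with EP2KO as red squares and WT as blue circles, 1 array per point and the same height of scale in every panel. Ccn2 peaked at 3 h and Ccn1 and Ccn4 stood highest at 9 to 14 h in both genotypes, Ccn5 stood highest at 14 h, and Ccn3 stayed within 0.34.

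The members did not share a time course. Ccn2 was highest at 3 h, Ccn1 and Ccn4 were higher at 9 and 14 h than at 0 and 3 h, Ccn5 was higher at 14 h alone, and Ccn3 hardly moved. Over the 8 arrays the range was 3.14 for Ccn2, 2.16 for Ccn1, 1.53 for Ccn5, 1.48 for Ccn4 and 0.34 for Ccn3. The median range of all probe sets was 0.66. The range of Ccn2 was wider than that of 99% of all probe sets, that of Ccn1 wider than 96.2%, and that of Ccn3 wider than 11%.

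Ccn2, a promoter of matrix synthesis and adhesion, read 7.66 at 0 h, 9.32 at 3 h, 7.10 at 9 h and 8.15 at 14 h in EP2KO. In WT it read 7.63, 8.26, 6.18 and 7.03 at the same times. Both 3 h arrays stood above the other times of their genotype, and both 9 h arrays were the lowest of theirs. From 0 to 3 h Ccn2 was higher by 1.66 in EP2KO and by 0.63 in WT, or 1.15 ± 0.224 in the fit over both genotypes (SE, limma fit of time and genotype over the 8 arrays). From 3 to 9 h it was lower by 2.22 in EP2KO and 2.08 in WT, a 4.44-fold difference in the fit. The 9 h values were also under those at 0 h, with differences of −0.56 in EP2KO and −1.45 in WT. At 14 h the signal was back above 9 h, by 1.05 in EP2KO and 0.85 in WT. Relative to 0 h the 14 h arrays then lay on opposite sides, with differences of 0.49 in EP2KO and −0.60 in WT, which left −0.05 in the fit. In order of level, 3 h (8.79 ± 0.75, SD, n = 2) stood clear of 0 h (7.64 ± 0.0212), while the arrays of 0 h, 14 h (7.59 ± 0.792) and 9 h (6.64 ± 0.651) overlapped in that order of neighbours.

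Ccn1, an adhesive and angiogenic ligand of integrins, read 6.66, 7.05, 8.12 and 8.80 in EP2KO at 0, 3, 9 and 14 h. In WT it read 6.98, 6.64, 8.14 and 7.88. The 4 arrays at 9 and 14 h were all above the 4 earlier ones. The main step lay between 3 and 9 h, by 1.07 in EP2KO and 1.5 in WT, or 1.28 ± 0.234 in the fit (SE). Against 0 h the fit gave 0.03 at 3 h, where EP2KO differed by 0.39 and WT by −0.34, then 1.31 at 9 h and 1.52 at 14 h. The 14 h value leaned on EP2KO: the difference from 0 h was 2.14 there and 0.90 in WT. From 9 to 14 h the genotypes parted, with 0.68 in EP2KO and −0.26 in WT. The 14 h arrays (8.34 ± 0.651, SD, n = 2) overlapped those at 9 h (8.13 ± 0.0141) and the 3 h arrays (6.84 ± 0.29) overlapped those at 0 h (6.82 ± 0.226), so the order within each pair of times is not settled.

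Ccn4, a WNT-inducible member, had a low signal on the arrays, with 8.99% to 26.3% of probe sets below it. It read 5.17, 5.41, 6.09 and 6.65 in EP2KO and 5.41, 5.25, 5.97 and 6.15 in WT at 0, 3, 9 and 14 h. Both genotypes were higher at 9 h than at 3 h and higher again at 14 h, with no overlap between these times. The differences from 0 h were 0.92 in EP2KO and 0.56 in WT at 9 h (0.74 ± 0.161 in the fit, SE), and 1.48 in EP2KO and 0.74 in WT at 14 h (1.11 in the fit). As with Ccn1, the 3 h differences had opposite signs, 0.24 in EP2KO and −0.16 in WT. Detection calls were not used here, so values this low may lie near background.

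Ccn5, the member without the cystine-knot module, read 6.26, 5.96, 6.10 and 7.09 in EP2KO and 6.29, 5.92, 6.22 and 7.45 in WT at 0, 3, 9 and 14 h. The 2 arrays of ovulated cells stood alone above the other 6. Between 9 and 14 h Ccn5 was higher by 0.99 in EP2KO and 1.23 in WT, and against 0 h the fit gave 1.0 ± 0.13 (SE), a 1.99-fold difference. At 3 h it was lower than at 0 h in both, by differences of −0.30 and −0.37 in EP2KO and WT. The order of times, 14 h, 0 h, 9 h and 3 h, held without overlap between neighbours. The steps below 14 h were small, however, and the 3 h difference of −0.33 in the fit shrank to −0.13 after quantile normalization.

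Ccn3, often described as a counterpart to Ccn2, read 7.07, 6.82, 6.89 and 7.03 in EP2KO and 7.12, 6.90, 6.86 and 7.16 in WT. The arrays at 0 and 14 h lay above those at 3 and 9 h, with differences from 0 h of −0.23 at 3 h, −0.22 at 9 h and 0.00 at 14 h in the fit (SE 0.114). The median of all probe sets was itself −0.13 at 3 h, −0.08 at 9 h and −0.06 at 14 h. With each array centred on its median the 3 h difference of Ccn3 was −0.16, and −0.09 after quantile normalization.

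Such separations of the 2 arrays of one time from the 2 of another were common on these arrays. At 3 h against 0 h, Ccn2 stood above, as did 26.4% of all probe sets, and Ccn3 and Ccn5 stood below, as did 47.8%. At 9 h against 0 h, Ccn1 and Ccn4 stood above (24.2% of probe sets) and Ccn2, Ccn3 and Ccn5 below (40.3%). At 14 h against 0 h, Ccn1, Ccn4 and Ccn5 stood above (25.6%) and no member below (37.5%). Between 3 and 9 h, the later arrays of Ccn1, Ccn4 and Ccn5 stood above (40.7%) and those of Ccn2 below (26.0%). Between 9 and 14 h, the later arrays of Ccn3, Ccn4 and Ccn5 stood above (34.2%) and none below (25.4%). Counts of separated members are therefore no result by themselves, and nothing is read from them.

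The genotypes differed most in Ccn2. Before hCG its signal was the same within 0.03, at 7.66 in EP2KO and 7.63 in WT. After hCG it was higher in EP2KO each time: 9.32 against 8.26 in WT at 3 h, 7.10 against 6.18 at 9 h, and 8.15 against 7.03 at 14 h. These differences were 1.06, 0.92 and 1.12, or 2.08-, 1.89- and 2.17-fold. The shape over time was alike in the genotypes, with the peak at 3 h and the trough at 9 h in both. Over the 4 times the fitted difference was 0.78 ± 0.159 (SE, limma), while the 4 single differences had an SD of 0.509. That SE is drawn towards the spread of all probe sets, so it understates how far the Ccn2 differences varied. Over the 6 arrays after hCG alone, a setting added after seeing the data, the fitted difference was 1.03. Differences of this size were rare in the table: 0.394% of probe sets differed as much in either direction at 3 h, 0.169% at 9 h and 0.137% at 14 h. Ccn2 ranked 7th from the highest difference at 3 h, 7th at 9 h and 14th at 14 h.

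A difference of at least 1 in favour of EP2KO was reached by 0.0242% of probe sets at 0 h (3 probe sets), 0.0644% at 3 h (8), 0.0403% at 9 h (5) and 0.169% at 14 h (21). Of the members, Ccn2 passed that mark at 3 and 14 h and no other did at any time. When the 12422 probe sets were ordered by the smallest of their 3 differences after hCG, an order chosen after the values were seen, Ccn2 came first with 0.92. The next was a probe set with no symbol at 0.68, which already differed by 1.14 at 0 h, and then Slfn4 at 0.38 and Mvd, an enzyme of sterol synthesis, at 0.32. At the other end stood Ptger2, the deleted gene, at −0.68, followed by Efnb2 at −0.57 and Zfp36l1 at −0.54. Ccn2 kept the top place with arrays centred on their medians, after quantile normalization, and without the arrays of 3, 9 or 14 h. These settings reuse the arrays from which the order was chosen, so they are no independent check of the rank. In the same order Ccn4 came 191st, Ccn1 2025th, Ccn3 5855th and Ccn5 10831st.

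**Figure D2:**
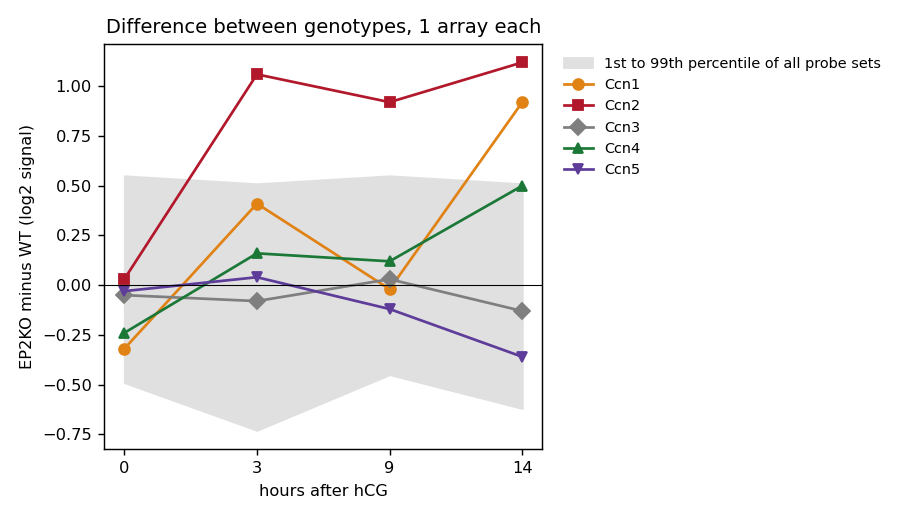
EP2KO minus WT difference in log2 signal of each CCN member by hours after hCG (0, 3, 9 and 14, drawn at even steps), 1 array per genotype and time, with the band from the 1st to the 99th percentile of all probe sets in grey. Ccn2 lies above the band at 3, 9 and 14 h and Ccn1 at 14 h, while Ccn3 and Ccn5 stay inside it throughout.

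The other members differed less between the genotypes. Ccn1 differed by −0.32 at 0 h, 0.41 at 3 h, −0.02 at 9 h and 0.92 at 14 h, so a large difference (1.89-fold) stood at 14 h alone, where 8.80 was read in EP2KO and 7.88 in WT. Ccn4 showed a like pattern at a smaller scale, with differences of −0.24, 0.16, 0.12 and 0.50. Without the 14 h arrays the fitted differences were 0.02 for Ccn1 and 0.01 for Ccn4. With them they were 0.25 ± 0.166 and 0.14 ± 0.114 (SE), so both rest on that time. The SDs of the differences over the 4 times were 0.539 for Ccn1 and 0.303 for Ccn4. Ccn5 went the other way at 14 h, by −0.36 (7.09 in EP2KO and 7.45 in WT), and stayed within 0.12 of zero before. Ccn3 differed by −0.13 to 0.03.

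Marker genes of other cells also differed between the genotypes at some of these times. At 14 h the summed leukocyte signal was 12.19 in EP2KO and 11.82 in WT, with a median difference of 0.33 over the 12 markers, and Lyz2 of macrophages and neutrophils, the marker that differed most, read 7.65 in EP2KO and 6.56 in WT. The summed signal of 9 oviduct epithelium markers was 12.60 in EP2KO and 12.31 in WT, with a median difference of 0.20, and Krt18, the marker that differed most, read 8.79 in EP2KO and 7.22 in WT. At 3 h the 8 oocyte markers were higher in EP2KO by a median of 0.40, with Zp3 at 8.17 against 7.05 in WT. At 9 h Hba-a1, a globin gene of red cells, read 10.94 in EP2KO and 13.39 in WT, while the summed signal of 11 endothelium markers was 11.50 in EP2KO and 11.55 in WT. Cdh5, the endothelium marker that differed most, was lower in EP2KO at both later times. It read 7.79 in EP2KO and 8.47 in WT at 9 h, and 7.75 in EP2KO and 8.56 in WT at 14 h. The median difference of the endothelium list was −0.06 at 9 h and 0.04 at 14 h, and its highest was 0.27 and 0.18. The part of all these marker differences in those of Ccn1, Ccn2 and Ccn4 was not tested.

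The likeness of patterns was measured by Pearson's r over the 8 arrays against genes with a range of at least 1 (2848 or 2849 candidates for a member), and is a description. Time and genotype are shared by all points, so r is high for many genes. Ccn1 and Ccn4 were among each other's most alike, with r = 0.981. Both also had Klf2, a shear-responsive transcription factor of endothelium and other cells, among their 4 most alike, with r = 0.971 for Ccn1 and 0.988 for Ccn4. Klf2 read 8.44, 8.58, 9.12 and 9.74 in EP2KO and 8.54, 8.57, 9.12 and 9.16 in WT at 0, 3, 9 and 14 h. Like Ccn1 and Ccn4 it was thus highest at 14 h in EP2KO. Cyba, a subunit of the phagocyte NADPH oxidase complex (r = 0.982), and Nr1h4, a bile acid receptor (r = 0.965), completed the 4 for Ccn1, and Ifitm3 (0.964) and Ahnak (0.962) those for Ccn4.

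For Ccn2 the most alike were Slfn4 (r = 0.923), Pfkp, a phosphofructokinase of glycolysis (0.858), Nsun2, an RNA methyltransferase (0.858), and Tbc1d15 (0.855). Slfn4 read 9.62, 9.83, 9.01 and 9.46 in EP2KO and 9.37, 9.45, 8.50 and 8.88 in WT, again highest at 3 h and lowest at 9 h. Its genotype differences after hCG were smaller than those of Ccn2. For Ccn5 the 4 most alike reached r = 0.991 to 0.994: Numa1, a spindle protein, Tpbg, a cell surface glycoprotein, Gtpbp2 and Lclat1. Tpbg read 7.44 in EP2KO and 7.71 in WT at 14 h, and 6.41 to 6.73 on the 6 earlier arrays. For Ccn3, whose own range was 0.34, Cnot6l (0.95), N4bp1 (0.933), Strn (0.932) and Scin (0.932) came nearest.

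**Figure D3:**
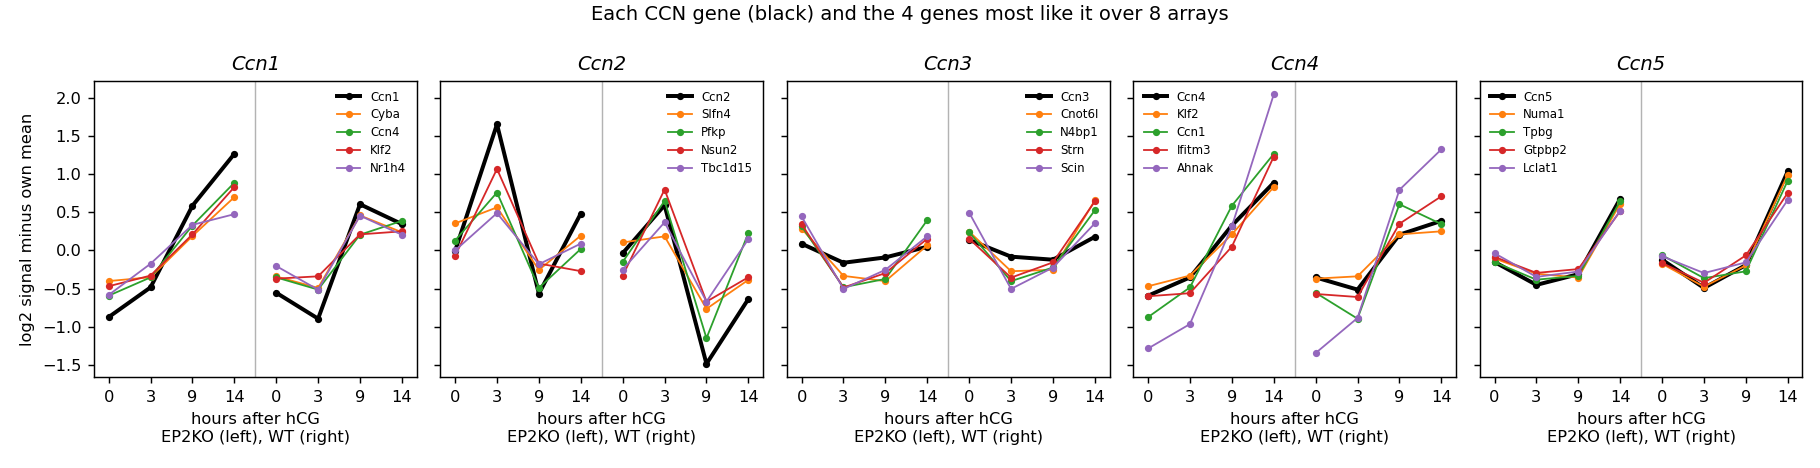
Log2 signal minus its own mean for each CCN member (black) and its 4 most alike genes by Pearson's r over 8 arrays, with the EP2KO arrays on the left and the WT arrays on the right of each panel, from 0 to 14 h. Ccn1 and Ccn4 appear in each other's panel, and Klf2 in both.

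The pathways around the family were described with 7 lists of 127 genes, a few of them in more than 1 list, of which 97 were measured. Here limma's test across all 12422 probe sets was used, and a gene was called where its adjusted p, by Benjamini-Hochberg, was under 0.05. At 3 h, 15 of the 97 were higher than at 0 h and 23 lower, beside 17.4% and 25.4% of all probe sets. At 9 h, 15 were higher and 7 lower, beside 10.9% and 12.1%. At 14 h, 32 were higher and 6 lower, beside 13.5% and 15.2%. Such shares count every probe set, whereas a list gene was counted by its probe set of highest mean. Counts and shares, here and below, are therefore not like for like. The list medians were −0.11, −0.04 and 0.12 at 3, 9 and 14 h, against −0.13, −0.08 and −0.06 for all probe sets. With each array centred on its median, the 3 h split was 17 higher and 15 lower. The 3 h counts leaned on WT arrays: without the 0 h array of WT they were 7 and 4, and without its 3 h array 4 were lower.

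**Figure D4:**
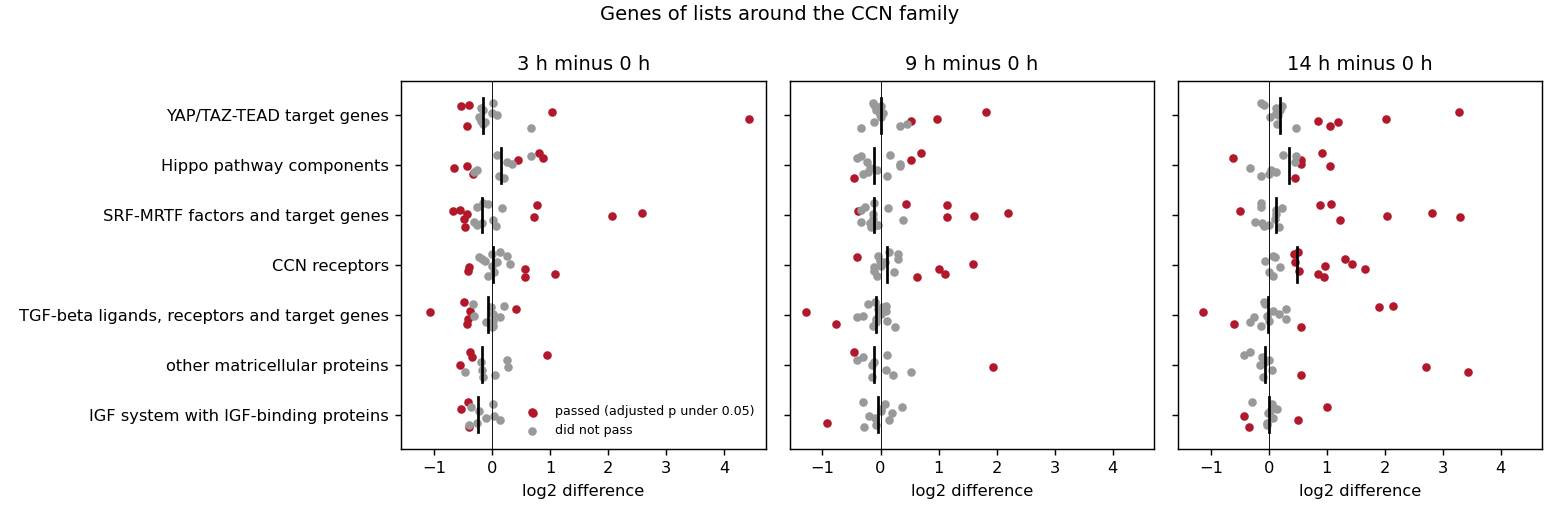
Log2 differences from 0 h at 3, 9 and 14 h (1 panel each) for the measured genes of the 7 pathway lists, from the limma fit over 8 arrays, with genes that passed an adjusted p of 0.05 in red, others in grey and the list median as a black bar. At 14 h most red points lie above zero, and the median of the CCN receptors is 0.48.

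Most of the measured receptors of CCN proteins were called higher in ovulated cells. Of 16, 10 were higher at 14 h than at 0 h and none lower, beside 13.5% and 15.2% of all probe sets. None was lower at an unadjusted limma p under 0.05 either, and the median was 0.48. At 3 h 3 were higher and 2 lower (17.4% and 25.4%), and at 9 h 4 were higher and 1 lower (10.9% and 12.1%). Itgb1, the common beta chain of the adhesion integrins, was higher by 1.01 ± 0.129 at 9 h (SE, limma adjusted p = 0.000431) and 1.66 ± 0.129 at 14 h (limma adjusted p = 7.98e-06). Itgb5, a partner of the alpha-v chain, was higher by 1.08 at 3 h (adjusted p = 0.000214) and 1.11 at 9 h. Among the syndecans, heparan sulfate proteoglycans that bind CCN proteins, Sdc1 was higher by 1.60 at 9 h and 1.43 at 14 h (adjusted p = 1.33e-05), and Sdc4 by 1.32 at 14 h (adjusted p = 2.05e-05). Itgb2, the beta chain of the leukocyte integrins, was also higher at 14 h, by 0.97, beside the leukocyte markers given above. The probe sets of Itgb1, Itgav and Sdc1 are of a kind that can bind related transcripts, and the 3 h calls of Itgav (0.57) and Itgb1 (0.57) were lost after quantile normalization, at 0.17 and 0.12. Without the 0 h array of EP2KO the 14 h count was 6.

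Among other YAP/TAZ-TEAD target genes, 15 were measured. At 3 h 2 were higher and 3 lower, beside 17.4% and 25.4% of all probe sets. At 9 h 3 were higher (10.9%), and at 14 h 5 were higher (13.5%). No gene was lower at 9 h (12.1%) or 14 h (15.2%), also at an unadjusted limma p under 0.05. F3, the tissue factor that starts coagulation, read 6.85, 10.66, 7.59 and 9.07 in EP2KO and 6.77, 11.83, 7.97 and 8.60 in WT. It shared with Ccn2 a peak at 3 h and a lower value at 9 h than at 14 h, and was higher than at 0 h by 4.43 ± 0.292 at 3 h (SE, limma adjusted p = 1.31e-05) and 2.02 at 14 h (adjusted p = 0.000456). Gadd45a, a stress and growth arrest gene, was higher by 1.82 at 9 h and 3.27 ± 0.222 at 14 h (adjusted p = 3.04e-06), and Asap1, a regulator of the cytoskeleton, by 1.20 at 14 h. The list's median difference between EP2KO and WT was −0.03 at 3 h, −0.10 at 9 h and 0.13 at 14 h. At 3 h F3 was lower in EP2KO by a difference of −1.17, and Amotl2, an angiomotin of the same list, read 7.33 in EP2KO and 8.60 in WT. At 9 h the differences were −0.38 for F3, the lowest of the list there, and −0.12 for Amotl2. At 14 h both were higher in EP2KO, by 0.47 for F3 and 0.33 for Amotl2. Gadd45a differed by −0.66 at 3 h, 0.07 at 9 h and −0.80 at 14 h, the lowest of the 15 at 14 h. F3 and Amotl2 had the lowest differences of the 15 at 3 h. These genotype differences were singled out after their values were seen and without a test.

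Of 14 measured Hippo pathway components, 3 were higher and 3 lower at 3 h, beside 17.4% and 25.4% of all probe sets. At 9 h 2 were higher and 1 lower (10.9% and 12.1%), and at 14 h 5 and 1 (13.5% and 15.2%). Frmd6, an upstream activator, was higher by 0.81, 0.69 and 0.91 at 3, 9 and 14 h (adjusted p = 0.00211, 0.00687 and 0.000819). Lats2, the kinase that inactivates YAP and is itself a YAP target, was lower at 3 h, with a difference of −0.44 (limma adjusted p = 0.014), and higher by 1.06 ± 0.117 at 14 h (SE, limma adjusted p = 8.03e-05). Tead4, a DNA-binding partner of YAP, was lower by a difference of −0.65 at 3 h (adjusted p = 0.0024). Yap1 itself differed by −0.45 at 9 h (adjusted p = 0.0266) and by 0.45 at 14 h (adjusted p = 0.0232). Its 9 h call was lost without either 0 h array or the 9 h array of WT, with adjusted p of 0.0918 to 0.343, and with the probe sets of a gene averaged (−0.25, adjusted p = 0.141). The 9 h call of Frmd6 was likewise lost without the 0 h array of WT (adjusted p = 0.0884) or the 9 h array of EP2KO (0.067).

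Of 18 measured genes of SRF and its MRTF coactivators, 4 were higher and 5 lower at 3 h, beside 17.4% and 25.4% of all probe sets. At 9 h 5 were higher and 1 lower (10.9% and 12.1%), and at 14 h 6 and 1 (13.5% and 15.2%). Tpm4, a tropomyosin, was higher by 2.58, 2.2 and 2.82 at 3, 9 and 14 h (adjusted p = 1.97e-05, 3.09e-05 and 2.17e-06). Tpm1, another tropomyosin, was higher by 2.06, 1.61 and 2.04. Vcl, vinculin of cell adhesions, was higher by 3.29 ± 0.216 at 14 h (SE, limma adjusted p = 2.45e-06), and Actg1, cytoplasmic gamma actin, by 0.78 at 3 h and 1.15 at 9 h. Tpm2, a further tropomyosin, and Myl9, a myosin light chain, were lower at 3 h, with differences of −0.43 and −0.48 (adjusted p = 0.0166 and 0.00973). Flna, the actin crosslinker filamin A, was lower at each time, with differences of −0.67, −0.38 and −0.50 (adjusted p = 0.00236, 0.0445 and 0.0107).

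Of the 16 measured genes of TGF-beta signalling, a known inducer of Ccn2, 1 was higher and 5 lower at 3 h. Those counts stand beside 17.4% and 25.4% of all probe sets. At 9 h none was higher (10.9%), also at an unadjusted limma p under 0.05, and 2 were lower (12.1%). At 14 h 3 were higher and 2 lower (13.5% and 15.2%). Smad7, the inhibitory SMAD that TGF-beta induces, was lower throughout, with differences of −1.07, −1.28 and −1.14 at 3, 9 and 14 h (adjusted p = 0.000362, 0.000145 and 0.000132). Tgfb3, a ligand, differed by −0.77 at 9 h (adjusted p = 0.00103). At 14 h Ltbp1, which tethers latent TGF-beta to the matrix, was higher by 2.14 ± 0.132 (SE, limma adjusted p = 1.7e-06), and Tgfbi, a TGF-beta-induced matrix protein, by 1.90 (adjusted p = 3.89e-05).

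Other matricellular proteins were measured for 11 genes, of which 1 was higher and 3 lower at 3 h, beside 17.4% and 25.4% of all probe sets. At 9 h 1 was higher and 1 lower (10.9% and 12.1%). At 14 h 3 were higher (13.5%) and none lower (15.2%), with 2 lower at an unadjusted limma p under 0.05. Tnc, tenascin C, was higher by 3.43 ± 0.173 at 14 h (SE, limma adjusted p = 5.37e-07), and Sparc, a collagen-binding protein, by 1.94 at 9 h and 2.71 at 14 h (adjusted p = 4.49e-05 and 1.85e-06). The list median stayed near zero even at 14 h, at −0.06. Tnc was thus called higher in ovulated cells alone, with 0.52 at 9 h (limma adjusted p = 0.0566). Sparc, unlike Ccn5, was already higher at 9 h, in cells from punctured follicles. In ovulated cells 4 of 9 oviduct and 5 of 12 leukocyte markers were also called higher, beside 13.5% of all probe sets. The part of such cells in these values was not tested. In the IGF system, which shares a module with the CCN proteins, 1 of 12 was higher and 3 lower at 3 h (17.4% and 25.4%). At 9 h 1 was lower (12.1%) and none higher (10.9%), with 1 higher at an unadjusted limma p under 0.05. At 14 h 2 were higher and 2 lower (13.5% and 15.2%). Igf1r, the IGF1 receptor, differed by −0.93 at 9 h (adjusted p = 0.000947), and Igfbp6, a binding protein that prefers IGF2, by 1.0 at 14 h (adjusted p = 0.000927).

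Between the genotypes, 0 of the 97 pathway genes passed limma's test over the 4 times, as did 0% of all probe sets in either direction. Ptger2, the deleted gene, was thus not called either. At an unadjusted limma p under 0.05, 9 of the 97 differed, 1 higher and 8 lower in EP2KO. Among the CCN receptors 1 was higher and 4 lower. Of the 12422 probe sets 642 differed, 376 higher and 266 lower. With 1 array per genotype and time, this fit sees a difference only where it is steady over the 4 times, so a difference that begins after hCG, like that described for Ccn2, adds to its residual. The time courses of EP2KO and WT share no samples, whereas each later time was set against the same 0 h arrays.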

How the data were processed

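The arrays were Affymetrix MG_U74Av2. The deposited values are log2 signals with 2 decimals, made by the authors with RMA, per the submitters' processing notes, which give no version. They were used as deposited. Of 12488 probe sets, 66 controls were left out and 12422 were tested, with no filter on low values. Gene symbols are those of the platform annotation, of which 10833 probe sets carry 1.

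Differences, SEs and adjusted p-values came from limma 3.58.1 in R 4.3.3 (time and genotype as terms, eBayes with a constant prior, 3 residual degrees of freedom, prior 7.24, Benjamini-Hochberg over all probe sets within a contrast), tested on simulated data first. Each SE rests on a variance that eBayes draws towards that of all probe sets. It can thus be smaller than the arrays of a single member would give, as for Ccn1 and Ccn2, or larger, as for Ccn3. With single arrays, p-values measure the spread between arrays, which may be technical. The members and gene lists were chosen with earlier results of these data known. For list genes with several probe sets, the one of highest mean stood for the gene. Genes were named by rule: the members, Ptger2, up to 3 genes per list and contrast with the largest change that passed, the 4 genes most alike each member, and defining markers. Flna, Tpm2, Myl9, Foxj1, Itgb2, Amotl2, Mvd, Efnb2, Zfp36l1, Cdh5, Pecam1 and Hba-a1 were named after their values were seen. Alternatives were array scaling, a filter on low values, other terms and priors, averaging of probe sets, and leaving out each array.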

Additional observations from a re-analysis of the deposited data

Results flagged for a closer look

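For 4 differences among the CCN members, the EP2KO and the WT array moved in opposite directions from their own 0 h array. Each rests on 1 array per genotype and time, and none of the differences was tested. Ccn1 at 3 h differed from 0 h by 0.39 in EP2KO and −0.34 in WT, a gap of 0.73. Ccn4 at 3 h differed by 0.24 in EP2KO and −0.16 in WT, a gap of 0.40. Ccn2 at 14 h differed by 0.49 in EP2KO and −0.60 in WT, a gap of 1.09. Ccn3 at 14 h differed by −0.04 in EP2KO and 0.04 in WT, a gap of −0.08, the smallest of the 4. Opposite signs were common on these arrays, with 16.7% of all probe sets at 3 h, 18.5% at 9 h and 27.1% at 14 h, against 2, 0 and 2 of the 5 members at 3, 9 and 14 h.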

How the results depend on the processing

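There are no replicates, so shifts under other scalings were set against the gap between the EP2KO and the WT change. Differences of the CCN members between times moved by less than that gap, with 3 exceptions. Ccn3 at 3 h (−0.23 as deposited) was −0.16 with arrays centred on their medians and −0.09 after quantile normalization. Ccn5 at 3 h (−0.33) was −0.26 and −0.13, and Ccn5 at 9 h (−0.11) was −0.01 after quantile normalization. The count of pathway genes lower at 3 h (23) was 15 with centred arrays, 14 without the lowest 40% of probe sets and 7 with the arrays of the 2 times alone, which leaves fewer samples. The cause of the others was not tested. Leaving out 1 array at a time gave 0.64 to 1.65 for Ccn2 at 3 h, −1.51 to −0.50 at 9 h, −0.56 to 0.45 at 14 h and 0.67 to 1.03 for its genotype difference. The same gave −0.35 to 0.40, 0.93 to 1.69 and 1.07 to 1.97 for Ccn1 at 3, 9 and 14 h, −0.21 to 0.29, 0.49 to 0.99 and 0.86 to 1.36 for Ccn4, −0.28 to −0.16 for Ccn3 at 9 h, −0.44 to −0.23 for Ccn5 at 3 h and 0.83 to 1.16 at 14 h. The pathway counts ranged over 7 to 16 higher and 4 to 24 lower at 3 h, 9 to 17 and 3 to 10 at 9 h, and 26 to 33 and 2 to 7 at 14 h. At 9 h the count of lower genes was 3 without the 0 h array of either genotype or the 9 h array of WT, and 4 without the 9 h array of EP2KO. At 14 h it was 2 without the 0 h or the 14 h array of WT and 3 without the 14 h array of EP2KO. Of the 59 calls of named pathway genes, 4 were lost with centred arrays, 5 after quantile normalization, 5 with the arrays of the 2 times alone and 1 with probe sets averaged, and 57 of 472 when 1 array was left out, with no reversal. No paired analysis was possible because the labels give no replicate numbers that link animals. Single arrays and the unknown detection of faint probe sets limit the precision.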
